A study of Mus musculus with 72 samples.

Results

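Gnb1, S100a5, Efhd2, Cfap54 and Prune2 are 5 genes that were chosen from measured values, namely from strain differences in adult mouse brain. They were covered by 12 probe sets, out of 18194 genes and 45101 probe sets on the array, and each probe set is described apart. Gnb1 had 3 probe sets, S100a5 had 1, Efhd2 and Cfap54 had 2 each and Prune2 had 4. Signals were measured on 72 Affymetrix arrays of whole brain and whole liver from male mice of 3 inbred strains, 129S2, DBA/2J (D2) and C57BL/6J (B6). The strains were sampled at the embryonic stage E14.5, at postnatal days 1 and 7 (P1 and P7) and at P90, which the labels give as 11 to 14 weeks of age, with 3 arrays for each of 24 groups. Per the labels, 129S2 mice came from one supplier and D2 and B6 mice from another. The P90 animals were themselves purchased, whereas the younger ones were their first-generation offspring, so age and rearing cannot be told apart. The series concerns how segmental copy number variation bears on transcript levels in tissues through development.

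The members act in unlike processes. Gnb1 encodes a beta subunit of heterotrimeric G proteins, which with a gamma subunit carries the signal of activated receptors to potassium channels, adenylyl cyclases and phospholipase C. S100a5 and Efhd2 encode calcium-binding proteins with EF-hand motifs. In mice S100a5 is known from olfactory sensory neurons, and Efhd2 (swiprosin-1) binds actin. Cfap54 belongs to the central apparatus of motile cilia, which line the brain ventricles, and its loss in mice leads to hydrocephalus. Prune2 encodes a large protein with a BCH domain that is abundant in nervous tissue.

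All values below are log2 signals, so a difference of 1 is a doubling. Brain strain differences at all 4 stages chose the members and are given as descriptions, without tests. Liver strain differences were not used in the choice and were tested. The authors had normalized the 9 arrays of each tissue and stage together and apart from other sets, so levels can be compared between strains within a stage but not directly between stages or tissues. Every array correlated best with its own strain on 400 marker probe sets taken from the other tissue (36 of 36 in brain and 36 of 36 in liver). Replicate 2 of 129S2 in P90 brain did so weakly, with r = 0.40 across probe sets, and P90 brain values without it are given for the 7 probe sets that separated B6 and for genes of the lists. Neuronal marker genes had a median percentile of 95.6 to 99.4 among the signals of brain arrays, and hepatocyte markers one of 98.6 to 100 in liver.

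In P90 brain, B6 stood apart from both other strains for 7 of the 12 probe sets, with no overlap of arrays and at least a 1.5-fold difference from each. B6 lay above 129S2 and D2 at 3 probe sets (S100a5, Efhd2 1437478_s_at and Prune2 1432198_at), a pattern seen in 0.675% of all probe sets. B6 lay below both at 4 probe sets (Gnb1 1417432_a_at and 1454696_at, Cfap54 1444517_at and Prune2 1455342_at), a pattern seen in 0.417% of all. Since the members were chosen for this contrast, nothing is read from these counts. Cfap54 1440502_at and Efhd2 1431339_a_at each missed the criterion in 1 pair. The first had log2 differences of 0.54 for 129S2 minus B6, under 1.5-fold, and 0.60 for D2 minus B6, and the other had -0.64 and, under 1.5-fold, -0.42. Without replicate 2 of 129S2 the count was also 7. The 129S2 minus B6 differences were then 1.82 for Gnb1 1454696_at, 1.71 for Gnb1 1417432_a_at, -1.83 for Efhd2 1437478_s_at, 1.79 for Cfap54 1444517_at and -6.40 for Prune2 1432198_at.

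The name "adult-only" fitted only some of these probe sets. At E14.5, B6 stood above both strains by the same criterion at 1 member probe set (background 0.79%) and below at 0 (background 0.471%). At P1 it stood above at 1 (0.449%) and below at 1 (0.295%). At P7 it also stood above at 1 (0.515%) and below at 1 (0.295%). The probe set above was Prune2 1432198_at each time, and those below were Gnb1 1417432_a_at at P1 and Cfap54 1444517_at at P7. S100a5, Efhd2 1437478_s_at, Gnb1 1454696_at and Prune2 1455342_at met the criterion at P90 alone.

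**Figure D1:**
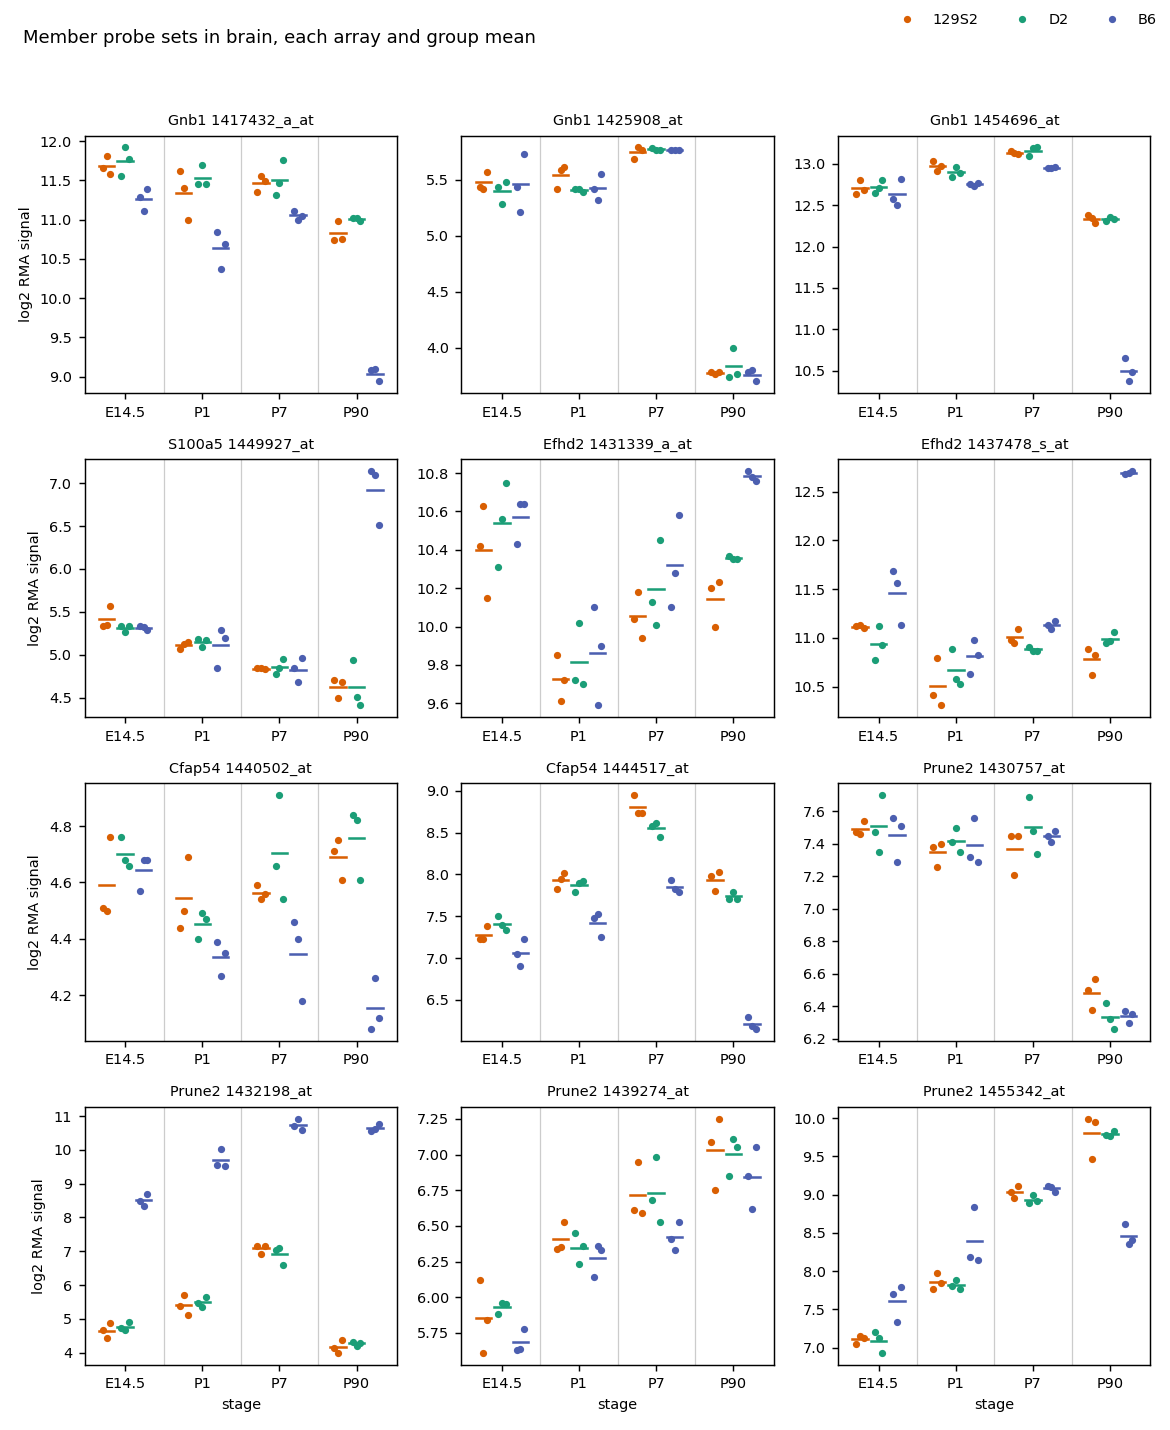
Log2 RMA signal (vertical axes, a range of their own in each panel) of the 12 member probe sets in brain at 4 stages, with 3 arrays (points) and the mean (bar) for 129S2, D2 and B6. At P90 the B6 arrays of S100a5 lie between 6.51 and 7.14, above all others, and those of Gnb1 1454696_at between 10.37 and 10.65, below all others. Heights are not comparable between stages, which were normalized apart.

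Gnb1 lies on mouse chromosome 4 (GRCm38, chr4:155491300-155559269). The RefSeq promoter windows of Gnb1 and S100a5 (GRCm38.p6, 250 bases before to 50 after the annotated start, plus strand) are shown because both genes differed at P90 in opposite directions, and capitals mark matches on either strand to the CCAAT box (CCAAT) and the GC box (GGGCGG).
Gnb1, chr4:155491111-155491410: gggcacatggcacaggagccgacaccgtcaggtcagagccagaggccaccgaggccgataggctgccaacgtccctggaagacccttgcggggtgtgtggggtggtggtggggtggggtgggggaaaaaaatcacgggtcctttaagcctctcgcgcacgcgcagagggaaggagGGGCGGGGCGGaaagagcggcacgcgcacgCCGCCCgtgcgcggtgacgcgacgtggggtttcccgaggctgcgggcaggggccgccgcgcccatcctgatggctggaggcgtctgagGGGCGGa
S100a5, chr3:90608272-90608571: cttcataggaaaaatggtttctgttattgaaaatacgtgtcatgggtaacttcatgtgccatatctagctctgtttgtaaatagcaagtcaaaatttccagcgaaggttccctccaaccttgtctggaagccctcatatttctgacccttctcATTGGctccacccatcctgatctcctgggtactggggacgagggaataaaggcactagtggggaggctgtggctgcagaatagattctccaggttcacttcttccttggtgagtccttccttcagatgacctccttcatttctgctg
The Gnb1 window held 4 GC boxes, of which a pair overlap by a base, and had a GC content of 70.3%. The S100a5 window held 1 CCAAT box and no GC box, with a GC content of 46.3%. It lies inside the S100a5 locus (chr3:90606480-90611784, 4 transcripts) and not at the first base of that locus. Whether the strains differ in sequence within these windows was not tested. Of all 32851 promoter windows, 37.4% held a CCAAT box and 35.7% a GC box, and the median GC content was 52.7%. The TATA box (TATAAA), which 13.6% of windows held, was found in neither window, nor in those of Efhd2 and Prune2. The windows of Efhd2 and Prune2 had 3 and 2 GC boxes. The table matched 4 of the 5 members, Cfap54 being the other.

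Probe set 1454696_at of Gnb1 read 12.38, 12.35 and 12.28 in 129S2 and 12.31, 12.36 and 12.33 in D2 at P90, against 10.65, 10.37 and 10.48 in B6. The 129S2 and D2 arrays were interleaved, and every B6 array lay far below them. The difference was 1.83 ± 0.07 (SE) for 129S2 minus B6 and 1.83 ± 0.07 for D2 minus B6. At E14.5 the group means were 12.71 ± 0.09, 12.73 ± 0.08 and 12.63 ± 0.17 in 129S2, D2 and B6 (SD, n = 3 each), and the arrays overlapped. At P1 they were 12.97 ± 0.06, 12.90 ± 0.06 and 12.76 ± 0.02, and at P7 13.14 ± 0.02, 13.16 ± 0.06 and 12.95 ± 0.01. B6 was thus already the lowest without overlap at P1 and P7, but by no more than 0.22.

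The second Gnb1 probe set, 1417432_a_at, read 10.74, 10.98 and 10.75 in 129S2 and 11.02, 11.02 and 10.98 in D2 at P90, against 9.08, 9.10 and 8.94 in B6. It therefore showed the same order, with 1.79 ± 0.13 for 129S2 minus B6 and 1.96 ± 0.13 for D2 minus B6. It was lower in B6 at each earlier stage as well, by more than 1454696_at. The differences were 0.42 and 0.49 at E14.5, 0.70 and 0.90 at P1 and 0.41 and 0.46 at P7 for 129S2 and D2 minus B6. The third probe set, 1425908_at, had group means of 3.78, 3.84 and 3.76 in 129S2, D2 and B6 at P90, with overlapping arrays at all 4 stages. It was faint, at percentiles 7.56 to 24.5 of the brain arrays, and how far it lay above background was not tested.

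In liver the Gnb1 probe sets passed the threshold (adjusted p below 0.05 and at least 1.5-fold, limma) in 0 of 36 strain tests. Over all probe sets, 2.65 to 5.16% of liver tests passed, depending on the stage. An unadjusted p below 0.05 was reached in 13 and an adjusted one in 8 of the 36 Gnb1 tests. The liver shares of all probe sets by p alone are not given here, so nothing is read from these 2 counts. At P90, 1454696_at read 8.49, 8.42 and 8.42 in 129S2 and 8.62, 8.58 and 8.64 in D2, against 8.08, 8.10 and 8.08 in B6. B6 was again lowest without overlap, but the differences of 0.36 ± 0.08 (129S2 minus B6, limma adjusted p = 0.0017) and 0.53 ± 0.08 (D2 minus B6, limma adjusted p = 1.4e-05) were under 1.5-fold. At P7 the order was the other way, with 10.33, 10.47 and 10.53 in 129S2 and 10.42, 10.27 and 10.37 in D2, against 10.80, 10.92 and 10.54 in B6. Here D2 minus B6 was -0.41 ± 0.08 (limma adjusted p = 0.00075), and the strain differences varied with stage (limma F test over all strain pairs, adjusted p = 1.4e-05), with the largest span, 0.93, in D2 minus B6.

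Some other G protein genes also differed between strains in P90 brain. Over all probe sets, limma called 1.63% for 129S2 minus D2, 1.79% for 129S2 minus B6 and 2.21% for D2 minus B6. Of 15 measured beta and gamma subunit genes, 1 passed, with 1 call in 45 tests. Gng4, a gamma subunit, averaged 10.04, 10.61 and 11.11 in 129S2, D2 and B6, and fell by 1.07 in 129S2 relative to B6 (SE 0.14, limma adjusted p = 6.2e-06). The other 14 beta and gamma genes did not pass in any of 3 contrasts. Of 32 genes for alpha subunits, effectors and regulators, 3 passed in at least 1 contrast. Each of the 3 contrasts had 1 call of a higher and 1 of a lower signal among these 32 genes. Kcnj9, a subunit of the potassium channels that beta-gamma dimers open, averaged 10.13 ± 0.15 in 129S2 and 10.28 ± 0.17 in D2, against 8.78 ± 0.03 in B6 (SD, n = 3 each). It was 1.35 ± 0.11 higher in 129S2 (limma adjusted p = 9.9e-10) and 1.5 ± 0.11 higher in D2 (limma adjusted p = 5.7e-11) than in B6. Its relative Kcnj6 averaged 5.87 in 129S2, 6.50 in D2 and 6.52 in B6, and was lower in 129S2 than in either other strain by 0.64 and 0.66. Plcb1, a phospholipase C, averaged 11.27 in 129S2, 10.63 in D2 and 11.37 in B6, so D2 was the strain apart. Without replicate 2 of 129S2, Kcnj9 was 1.35 higher in 129S2 than in B6, Kcnj6 differed by -0.67 and -0.69 from D2 and B6, and Gng4 by -1.20 from B6 and, now called, by -0.69 from D2. The median difference of the list of alpha subunits, effectors and regulators lay between -0.02 and 0.02, and that of all probe sets between 0.01 and 0.03.

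S100a5 (chr3:90606480-90611784) gave 4.70, 4.49 and 4.68 in 129S2 and 4.94, 4.51 and 4.41 in D2 in P90 brain, against 7.14, 7.10 and 6.51 in B6. The 129S2 and D2 arrays overlapped, and the lowest B6 array lay well above the highest of them. The difference was -2.29 ± 0.13 for 129S2 minus B6 and -2.30 ± 0.13 for D2 minus B6, with -2.22 for 129S2 without its replicate 2. At E14.5 the means were 5.41 ± 0.13, 5.31 ± 0.04 and 5.31 ± 0.02 in 129S2, D2 and B6. At P1 they were 5.11 ± 0.04, 5.15 ± 0.05 and 5.12 ± 0.23, and at P7 4.84 ± 0.01, 4.86 ± 0.09 and 4.83 ± 0.14 (SD, n = 3 each). Arrays of the strains overlapped at these 3 stages, and no difference from B6 exceeded 0.10. The signals of these stages were low, with group means at percentiles 12.6 to 19.4 of the arrays. At P90 they lay at percentiles 22.7 and 23.0 in 129S2 and D2 and 56.9 in B6. How far the low signals lay above background was not tested. The size of the P90 difference and the likeness of the strains at earlier stages are therefore uncertain.

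Of the 7 measured olfactory bulb markers, 2 were called lower in 129S2 than in B6 and 3 lower in D2 than in B6 in P90 brain. Over all probe sets, limma called 1.79% and 2.21% in these contrasts, in either direction. Of the 21 tests of this list, 10 had an unadjusted p below 0.05 (12.5% of tests over all probe sets). The mean signal of that list ran from 5.85 to 6.15 on 129S2 arrays and 5.86 to 6.13 on D2 arrays, against 6.60 to 6.80 on B6 arrays of P90 brain, without overlap. The strain ranges overlapped at E14.5, P1 and P7. Doc2g averaged 6.57 and 6.54 in 129S2 and D2 and 7.50 in B6, and fell by 0.93 and 0.96 relative to B6 (limma adjusted p = 7.7e-07 and 3.1e-07). Sp8, a transcription factor of bulb interneurons, averaged 4.68 and 4.97 in 129S2 and D2 and 6.01 in B6, and fell by 1.32 and 1.04 (limma adjusted p = 0.00065 and 0.0069). Without replicate 2 of 129S2 the 129S2 differences were -0.91 for Doc2g and -1.26 for Sp8, and both passed. Sp8 signals were low, at a mean percentile of 32.2 in P90 brain. How far they lay above background was not tested, so the size of the Sp8 difference is uncertain. Cdhr1, a cadherin of mitral and tufted cells, averaged 8.06 in 129S2, 7.15 in D2 and 8.58 in B6, and passed for D2 minus B6 (-1.43, limma adjusted p = 0.024). Without replicate 2 of 129S2, Cdhr1 in 129S2 differed by only -0.25 from B6 and by 1.18 from D2, neither of them called. For this gene D2, and not B6, was then the strain apart.

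Eomes, which marks mitral and tufted cells, read 4.70, 4.61 and 4.69 in 129S2 and 4.84, 4.90 and 5.24 in D2, against 6.11, 6.40 and 6.06 in B6. It did not pass when all 36 brain arrays shared an estimate of spread, but did with the 9 arrays of P90 brain alone (-1.52 and -1.19, limma adjusted p = 2.2e-05 and 8.7e-05). With those 9 arrays, limma called 3 of the 7 bulb markers for 129S2 minus B6, against 2% of all probe sets. It called 4 for D2 minus B6 (2.48% of all) and 1 for 129S2 minus D2 (1.75% of all). The last was Cdhr1 (0.91, limma adjusted p = 0.038). Tbx21, Th and Trh did not pass in any contrast of 36 arrays. In 129S2 and D2 minus B6 they differed by -0.43 and -0.52, by -0.05 and -0.05 and by -0.16 and -0.07. Eomes and Tbx21 signals were low, at mean percentiles of 33.1 and 13 in P90 brain. How far they lay above background was not tested, so the sizes of their differences are uncertain. The list of 8 measured olfactory sensory neuron genes had mean signals of 5.58 to 5.66, 5.52 to 5.61 and 5.61 to 5.69 in 129S2, D2 and B6. Of these, Omp averaged 5.95, 6.12 and 6.55, and passed for 129S2 minus B6 (-0.60, limma adjusted p = 0.00031), but not without replicate 2 of 129S2 (-0.57, under 1.5-fold). How much bulb tissue each sample held was not measured apart from these genes, and its part in the S100a5 difference was not tested. The same B6 arrays carried the P90 differences of Gnb1, Efhd2, Cfap54 and Prune2, in which the part of bulb tissue was not tested either. In whole brain, fewer cells of a type and less RNA per cell cannot be told apart.

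**Figure D2:**
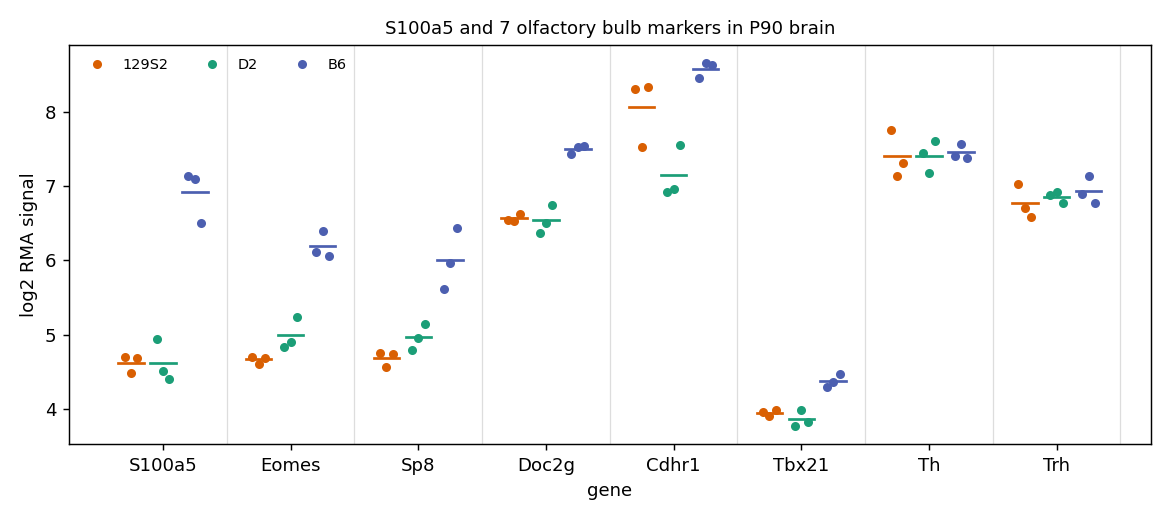
Log2 RMA signal (vertical axis) of S100a5 and the 7 measured olfactory bulb markers (horizontal axis) in P90 brain, with 3 arrays (points) and the mean (bar) for 129S2, D2 and B6. S100a5, Eomes, Sp8, Doc2g, Cdhr1 and Tbx21 are higher in every B6 array than in every other array, whereas Th and Trh overlap between the strains. The share of all probe sets with such a separation, whatever its size, is not given here. For Cdhr1 the gap is small, with the highest 129S2 array at 8.34 and the lowest B6 array at 8.45.

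In liver S100a5 passed in 0 of 12 strain tests with limma, and 0 reached an unadjusted p below 0.05. Over all probe sets, 2.65 to 5.16% of liver tests passed, depending on the stage. At P90 its arrays read 4.87, 4.76 and 4.72 in 129S2 and 4.91, 4.77 and 4.77 in D2, against 4.65, 5.01 and 4.64 in B6. The largest liver difference at any stage was 0.20. Of 12 other S100 family genes measured, 0 passed in P90 brain by limma, and 5 of their 36 tests had an unadjusted p below 0.05 (12.5% of tests over all probe sets).

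Efhd2 (chr4:141858142-141874920) was also higher in B6. Its probe set 1437478_s_at read 10.89, 10.62 and 10.83 in 129S2 and 10.95, 10.97 and 11.06 in D2 in P90 brain, against 12.68, 12.69 and 12.71 in B6. The 3 B6 arrays were within 0.03 of each other and above all others. The difference was -1.91 ± 0.12 for 129S2 minus B6 and -1.70 ± 0.12 for D2 minus B6. Earlier differences were smaller, at -0.34 and -0.52 at E14.5, -0.31 and -0.15 at P1 and -0.12 and -0.25 at P7. The other probe set, 1431339_a_at, averaged 10.14 ± 0.12 in 129S2 and 10.36 ± 0.01 in D2 at P90, against 10.78 ± 0.02 in B6 (SD, n = 3 each). It had the same order without overlap, with smaller differences of -0.64 and -0.42.

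Of the members, Efhd2 gave the most strain calls in liver, and all 8 of its calls against B6 were higher in B6, as in P90 brain. Over all 12 probe sets, limma called 5 of 36 tests at E14.5 (2.65% of tests over all probe sets), 2 of 36 at P1 (5.16%), 4 of 36 at P7 (3.29%) and 5 of 36 at P90 (3.76%). Of these 16 calls, 10 belonged to Efhd2. At E14.5, 1437478_s_at read 10.67, 10.46 and 10.23 in 129S2 and 10.91, 10.45 and 10.47 in D2, against 11.66, 11.69 and 11.48 in B6. It fell by 1.16 in 129S2 (SE 0.16, limma adjusted p = 7.3e-06) and by 1.00 in D2 (SE 0.16, limma adjusted p = 5.3e-05). At P90 it read 9.23, 9.07 and 8.95 in 129S2 and 8.02, 8.24 and 8.36 in D2, against 9.69, 9.93 and 9.82 in B6. The 3 strains were then separate, and each pair passed.

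At P90 the liver difference of 1437478_s_at was -1.61 ± 0.16 for D2 minus B6 (3.05-fold, limma adjusted p = 1.3e-08) and -0.73 ± 0.16 for 129S2 minus B6 (limma adjusted p = 0.0017). It was also 0.87 ± 0.16 higher in 129S2 than in D2 (limma adjusted p = 0.00028), strains whose P90 brain means were 10.78 and 10.99. At P7, 129S2 minus B6 was -0.68 (limma adjusted p = 0.0057), and at P1 no contrast passed. Probe set 1431339_a_at passed 4 times: for 129S2 minus B6 at E14.5 (-0.77), for D2 minus B6 at P7 (-0.76), and at P90 for 129S2 minus D2 (0.90) and D2 minus B6 (-0.66, limma adjusted p = 0.048). That last call was lost under 25 of 45 other settings. The strain difference varied with stage for 1437478_s_at (limma F test, adjusted p = 0.00058) and at the margin for 1431339_a_at (adjusted p = 0.049, or 0.052 with the replicate number as a block).

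**Figure D3:**
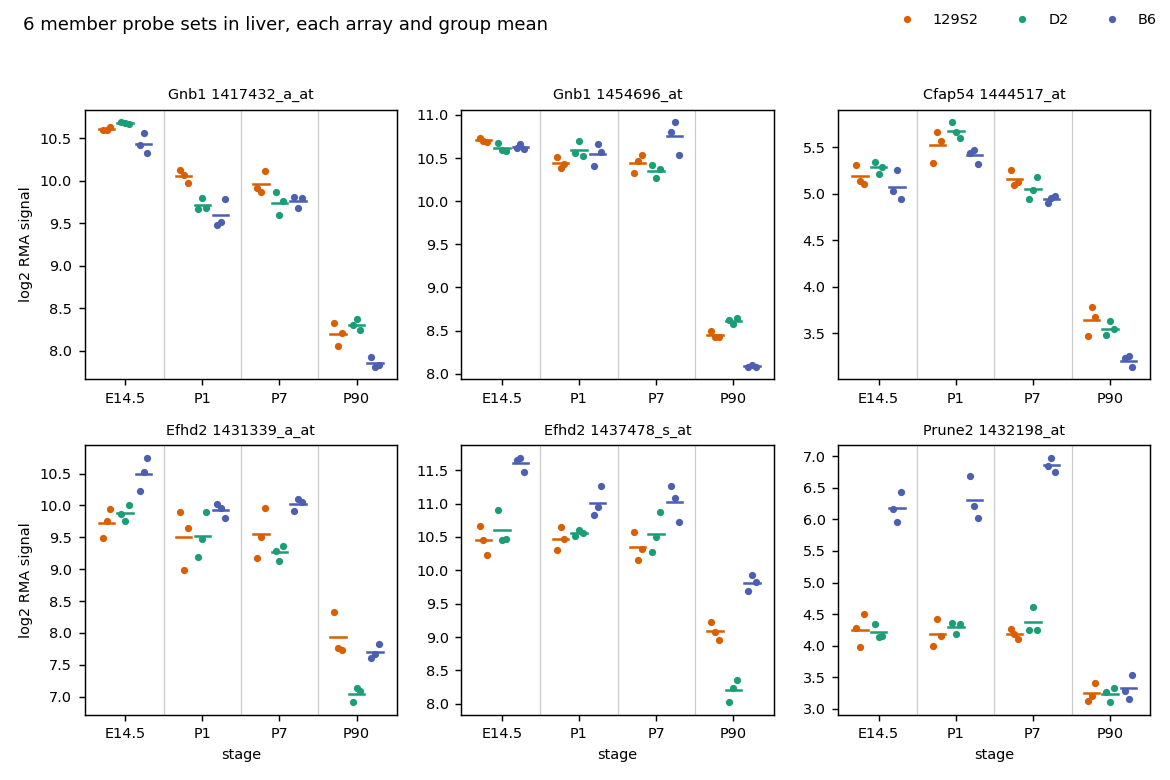
Log2 RMA signal (vertical axes) of 6 member probe sets in liver at 4 stages, with 3 arrays (points) and the mean (bar) for 129S2, D2 and B6. Efhd2 1437478_s_at separates all 3 strains at P90, and Prune2 1432198_at is high in B6 at E14.5, P1 and P7 but not at P90. The P90 liver signals of Prune2 1432198_at are faint in every strain.

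Of 19 measured genes for other EF-hand calcium sensors and buffers, 1, Ncs1, passed in P90 brain. Limma called 1.63 to 2.21% of all probe sets there, depending on the contrast. Of the 57 tests of this list, 12 had an unadjusted p below 0.05 (12.5% of tests over all probe sets). Ncs1 averaged 10.25 in 129S2, 10.86 in D2 and 10.24 in B6, and was lower by 0.60 in 129S2 than in D2 and higher by 0.62 in D2 than in B6 (limma adjusted p = 0.0041 and 0.0022). B6 was thus not the strain apart for this gene. Without replicate 2 of 129S2 the difference from D2 was -0.81 (limma adjusted p = 2.5e-05).

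Cfap54 (chr10:92775609-93083487) was lower in B6, with a difference that was larger at each later stage of these separately normalized sets. Probe set 1444517_at read 7.98, 7.80 and 8.03 in 129S2 and 7.71, 7.79 and 7.71 in D2 in P90 brain, against 6.30, 6.19 and 6.15 in B6. The B6 arrays were far below, and the 129S2 and D2 arrays nearly met. For 129S2 minus B6 the difference was 0.22 at E14.5, 0.51 at P1, 0.96 at P7 and 1.72 at P90 (SE 0.09 each). For D2 minus B6 it was 0.35, 0.45, 0.70 and 1.52 at the same stages. At P7 the arrays read 8.95, 8.73 and 8.74 in 129S2 and 8.58, 8.62 and 8.45 in D2, against 7.93, 7.82 and 7.79 in B6, so the 3 strains were already separate. The fainter probe set 1440502_at followed at P90, with 4.71, 4.75 and 4.61 in 129S2 and 4.84, 4.82 and 4.61 in D2, against 4.08, 4.26 and 4.12 in B6.

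Other genes of motile cilia gave no call in P90 brain. Of 28 measured genes of the axoneme and central apparatus, 0 passed in any contrast by limma, against 1.63 to 2.21% of all probe sets. An unadjusted p below 0.05 was reached in 8 of 84 tests (12.5% over all probe sets). These genes lay at percentiles from 1.96 (Cfap47) to 73.4 (Rsph9) of P90 brain arrays. How far the faint ones lay above background was not tested. Their median difference was 0.05 for 129S2 minus B6 and 0.07 for D2 minus B6, and that of all probe sets 0.03 and 0.02. The 13 choroid plexus and ependyma markers had mean signals of 6.76 to 6.99 in 129S2, 7.12 to 7.33 in D2 and 7.14 to 7.30 in B6, so 129S2 and not B6 was lowest. In liver Cfap54 passed in 0 of 24 limma tests, against 2.65 to 5.16% of tests over all probe sets, depending on the stage. Of the 24, 6 had an unadjusted and 4 an adjusted p below 0.05, shares not given here for all probe sets. At P90, 1444517_at read 3.47, 3.78 and 3.67 in 129S2 and 3.48, 3.63 and 3.54 in D2, against 3.23, 3.25 and 3.14 in B6. That is lower in B6 as in brain, by 0.43 ± 0.09 and 0.34 ± 0.09 (limma adjusted p = 0.0015 and 0.019), which is under 1.5-fold. These liver signals were faint, at percentiles 20.4, 18.0 and 9.94 in 129S2, D2 and B6. How far they lay above background was not tested.

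Prune2 (chr19:16955668-17223963) was the member whose probe sets disagreed in direction in P90 brain. Where its probes lie in the transcript, and whether the strains differ in sequence under them, was not tested, so a signal difference of 1 probe set need not be one of the whole transcript. Probe set 1455342_at read 9.99, 9.46 and 9.95 in 129S2 and 9.78, 9.76 and 9.83 in D2 in P90 brain, against 8.62, 8.36 and 8.41 in B6. B6 lay below both, by 1.33 ± 0.14 for 129S2 minus B6 (1.5 without replicate 2 of 129S2) and by 1.32 ± 0.14 for D2 minus B6. At E14.5 and P1 this probe set had been higher in B6. It read 7.05, 7.15 and 7.12 in 129S2 and 7.21, 7.12 and 6.93 in D2 at E14.5, against 7.70, 7.34 and 7.79 in B6, without overlap. The differences were -0.51 and -0.52 at E14.5, -0.53 and -0.58 at P1 and -0.05 and -0.15 at P7, so the sign at P90 was opposite to that of the younger stages.

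Probe set 1432198_at of Prune2 was higher in B6 at every brain stage, and so opposite to 1455342_at at P90. At P90 it read 4.13, 3.99 and 4.36 in 129S2 and 4.32, 4.21 and 4.29 in D2, against 10.55, 10.62 and 10.76 in B6. The difference of -6.48 ± 0.15 for 129S2 minus B6 and -6.37 ± 0.15 for D2 minus B6 was set against signals at percentiles 14.4 and 16.8 of the 129S2 and D2 arrays. How far those signals lay above background was not tested, so its exact size is uncertain. The difference was -3.85 and -3.74 at E14.5, -4.31 and -4.22 at P1 and -3.65 and -3.83 at P7. Probe sets 1430757_at and 1439274_at overlapped between strains at P90, with means of 6.48, 6.33 and 6.34 and of 7.03, 7.00 and 6.84 in 129S2, D2 and B6. When the 4 probe sets were averaged, Prune2 as a gene was -1.21 and -1.22 for 129S2 and D2 minus B6, the opposite of 1455342_at alone. The sign of that mean rests on 1432198_at, whose size is uncertain. In the same contrasts 1430757_at differed by 0.14 and -0.01 and 1439274_at by 0.19 and 0.16.

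In liver 1432198_at passed for 129S2 and D2 against B6 at the 3 younger stages. At E14.5 it fell by 1.94 in 129S2 and by 1.98 in D2, and at P1 by 2.13 and 2.01 (limma adjusted p at most 2.2e-10). At P7 it read 4.27, 4.18 and 4.11 in 129S2 and 4.25, 4.61 and 4.24 in D2, against 6.84, 6.98 and 6.75 in B6. The P7 difference for 129S2 minus B6 was -2.67 ± 0.15 (6.35-fold, limma adjusted p = 3.6e-13). At P90 it read 3.12, 3.20 and 3.41 in 129S2 and 3.26, 3.10 and 3.33 in D2, against 3.28, 3.16 and 3.54 in B6, and the strains overlapped. These P90 signals were faint, at percentiles 10.4, 9.72 and 13.1 in 129S2, D2 and B6. At the younger stages 129S2 and D2 were faint too, at percentiles 10.2 to 14.9. How far the faint signals lay above background was not tested, so the sizes of these differences are uncertain. The strain difference varied with stage (limma F test, adjusted p = 3.1e-09). Liver values of 1455342_at passed in no contrast, with the largest difference at P7 (-0.51 ± 0.10 for 129S2 minus B6, limma adjusted p = 0.0013). Its strain differences varied with stage (limma F test over all strain pairs, adjusted p = 0.0029), with the largest span, 0.71, in D2 minus B6. At P90 that pair differed by 0.39 ± 0.10 (limma adjusted p = 0.016). Of 6 other PRUNE and BCH domain genes, 0 passed in P90 brain by limma. Of their 18 tests, 1 had an unadjusted p below 0.05 (12.5% of tests over all probe sets).

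**Figure D4:**
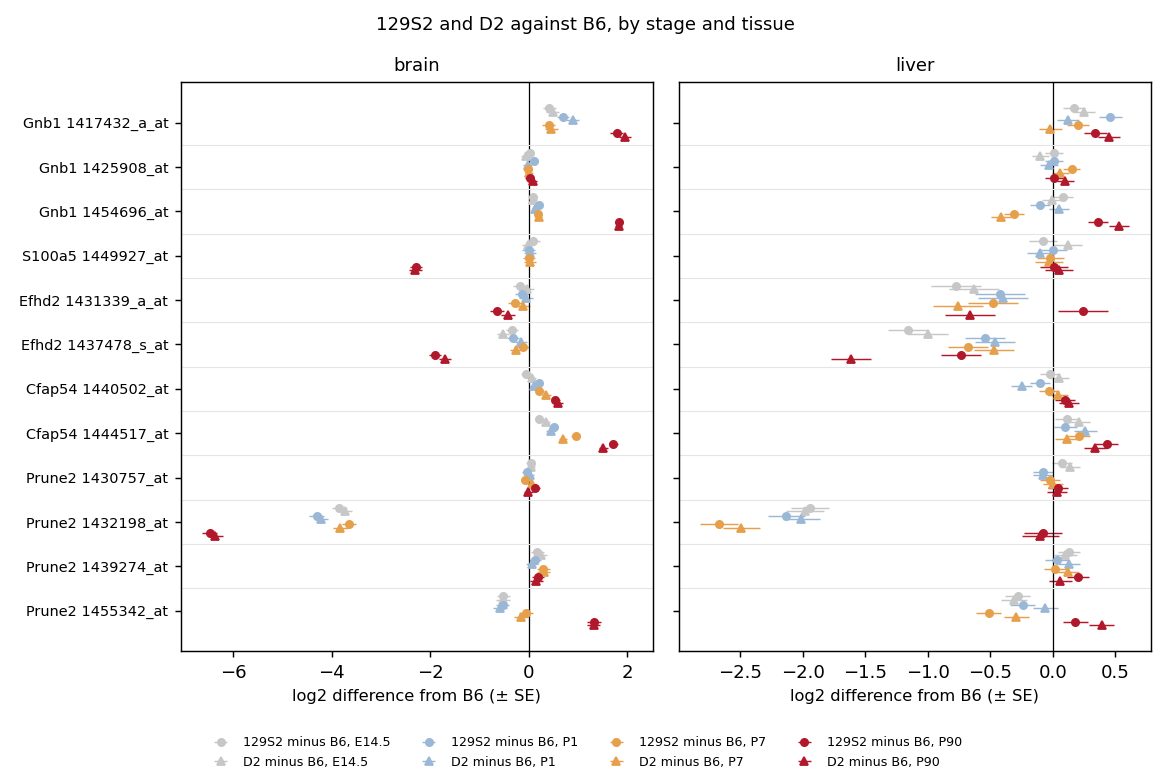
Log2 difference from B6 (horizontal axes, with SE bars) of 129S2 (circles) and D2 (triangles) at 4 stages for the 12 member probe sets in brain (left) and liver (right), on axes of different range. In brain the P90 points stand far from 0 for S100a5 and Gnb1 1454696_at, whose earlier points lie near 0, and Prune2 1432198_at is displaced at every stage.

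Over the 12 probe sets, the liver F test of strain by stage called 5, against 17.9% of all probe sets. Across brain stages only sizes can be given. After quantile normalization over the brain arrays, 2 of 12 probe sets, Prune2 1439274_at and 1455342_at, had P90 signals at least 2-fold above those of E14.5 in all 3 strains (12.6% of all), and 0 were lower (12.1% of all). For 1455342_at the difference was 3.47 in 129S2, 3.45 in D2 and 1.59 in B6. S100a5 differed by 0.23 and 0.33 between P90 and E14.5 in 129S2 and D2, and by 2.40 in B6. Gnb1 1454696_at differed by 0.23 and 0.21 in 129S2 and D2, and by -1.51 in B6. With the values as deposited, whose median over all probe sets fell by 0.82 between these stages, the S100a5 differences were -0.79, -0.69 and 1.60 and those of Gnb1 1454696_at -0.38, -0.39 and -2.12 in 129S2, D2 and B6.

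With each array centred on its median, 4 probe sets were at least 2-fold higher in P90 brain than in P90 liver in each strain (14.4% of all), namely Gnb1 1454696_at, Cfap54 1444517_at and Prune2 1439274_at and 1455342_at. Prune2 1455342_at had the largest such difference, 4.11 in 129S2, 3.91 in D2 and 2.96 in B6. In the other direction, 2 were lower (22.4% of all), Gnb1 1425908_at and Prune2 1430757_at, but on the values as deposited these differed by 0.29, 0.26 and 0.28 and by 0.07, -0.06 and -0.03. Prune2 1432198_at differed by -0.47 and -0.31 between brain and liver in 129S2 and D2, and by 5.93 in B6.

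Neighbouring genes were described because the series concerns segments that can hold several genes. Of the 50 nearest genes, 5 on each side of every member and within 1 Mb, 23 were measured. None of their 69 P90 brain tests was called by limma, 8 had an unadjusted p below 0.05 (12.5% over all probe sets), and the largest difference was 0.59. Without the fold minimum 3 of the 69 tests passed, all at neighbours of Prune2. They were Rfk in D2 minus B6 (0.53) and in 129S2 minus D2 (-0.34), and Vps13a in 129S2 minus B6 (-0.28). The share of all probe sets that passed without the fold minimum is not given here. The other 27 neighbours were not measured, and a change within a single gene would not show in these values.

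The genes whose brain pattern was most like each member's were found by correlation over 12 group means centred by stage, among 458 probe sets with a P90 span of at least 1. These means share the arrays and normalization of the members, and the correlations are descriptive. Members and compared probe sets were both picked for strain differences in P90 brain, so nothing is read from the height of r. For Gnb1 they were Sv2c, a synaptic vesicle protein (r = 0.99), Slc7a14 (0.98) and Ccr6 (0.98), and Slc7a14 averaged 7.06 and 7.20 in 129S2 and D2 and 5.26 in B6. For S100a5 they were Etnppl (0.99), Dcdc2b (0.98) and Ighm, an immunoglobulin heavy chain (0.97). Dcdc2b averaged 4.62 and 4.34 in 129S2 and D2 and 6.37 in B6. For Efhd2 they were Nav1 (0.98), Tut4 (0.97) and Fcrls, a microglial gene (0.97), which averaged 6.66 and 6.85 in 129S2 and D2 and 8.50 in B6. For Cfap54 they were Xaf1 (0.97), Card10 (0.96) and Lsm12 (0.95), and Xaf1 averaged 7.79 and 7.53 in 129S2 and D2 and 4.65 in B6. Prune2 1455342_at was most like Ret, a receptor tyrosine kinase (0.92), Irs4 (0.84) and Slc6a3, the dopamine transporter (0.83), which averaged 7.55 and 7.27 in 129S2 and D2 and 5.63 in B6.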

How the data were processed

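The authors deposited log2 RMA signals for 45101 probe sets on 72 arrays. Per the submitters' processing notes these were made with RMA, whose version is not given in the sources used here. Any pair of arrays shared 1.55 to 4.35% of their values within a tissue and stage, and 0 between sets, which is how the separate normalization was recognised. Gene symbols came from the platform annotation: 34958 probe sets had 1 symbol, 932 several and 9211 none. The 64 control probe sets were left out and no filter was applied to the other 45037.

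Each tissue's 36 arrays were fitted with limma 3.58.1 in R 4.3.3 (lmFit with a mean for each of 12 groups, eBayes, two-sided, Benjamini-Hochberg adjustment over all probe sets within a contrast). Calls required at least a 1.5-fold difference and adjusted p below 0.05. The fit was tested on simulated data. Genes with several probe sets were represented in lists and among neighbours by the one with the highest brain mean.

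The members and gene lists were chosen with earlier results of these data known. Named genes were all member probe sets, the 3 genes most like each member, up to 4 called genes per list, and called neighbours. Alternatives covered filters, normalization, variance, weights, fold minimum, probe set choice, a replicate block and each array left out. Same-numbered arrays deviated together (all 9 correlations over 0.1) only in P7 brain and E14.5 liver, and the labels do not say what a number shares. The labels do not say whether arrays came from separate animals, so p-values measure only the spread between these samples, which may be technical. With 3 arrays a group, their number limits the precision. Of 17 gene lists, 186 of 213 genes were measured, and those not described above gave no call in P90 brain by limma, except Sostdc1 of the choroid plexus list, lower in 129S2 than in D2 (-0.81), and Mobp of the oligodendrocyte list, higher in 129S2 than in D2 (0.74) and lower in D2 than in B6 (-0.95). Without replicate 2 of 129S2 in P90 brain, Sostdc1 and Mobp differed by -1.04 and 0.79 between 129S2 and D2, and Sostdc1 was also called for 129S2 minus B6 (-0.65).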

Additional observations from a re-analysis of the deposited data

Results flagged for a closer look

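The strain difference of 5 member probe sets varied with stage in liver by the interaction test of limma, which called 17.9% of all probe sets. The test covers all strain pairs, and the span between stages, on the log2 scale, is that of the pair with the largest. It was 2.58 for Prune2 1432198_at in 129S2 minus B6 (-2.67 at P7 and -0.08 at P90, where the signals were faint in every strain). It was 1.15 for Efhd2 1437478_s_at in D2 minus B6, which was -1.61 at P90. It was 1.04 for Efhd2 1431339_a_at in 129S2 minus D2, which was 0.90 at P90. For Gnb1 1454696_at it was 0.93 in D2 minus B6, which was -0.41 at P7 and 0.53 at P90. For Prune2 1455342_at it was 0.71 in D2 minus B6, which was -0.31 at E14.5 and 0.39 at P90. Each stage had been normalized apart, and a scale that differs between stages was not tested as a part of these spans.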

How the results depend on the processing

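The 16 liver calls became 32 without the fold minimum and lay between 14 and 18 when each array was left out. The 5 liver interactions became 3 with a filter at the 75th percentile, which leaves faint probe sets untested, and 4 to 5 with an array left out. The 18 calls of list genes in P90 brain became 31 without the fold minimum, 28 with only the P90 arrays and 9 when each gene's probe sets were averaged, and 15 to 22 with an array left out; the cause was not tested. Neighbours had 3 calls without the fold minimum and 0 to 0 with an array left out. The 7 member probe sets with B6 apart in P90 brain were 7 to 8 with an array left out and 8 after quantile normalization. The mean of its 4 probe sets turned Prune2 to -1.21 and -1.22 for 129S2 and D2 minus B6 in P90 brain, with 1432198_at among them. With the replicate block there were 16 liver calls, 4 liver interactions, 19 list calls and 0 neighbour calls, and Efhd2 1431339_a_at lost its interaction (adjusted p = 0.052). That interaction was lost in 31 of 44 settings, among them without replicate 1 of 129S2 at P90 (0.85, adjusted p = 0.19). The liver call of 1431339_a_at for D2 minus B6 at P90 was lost in 25 of 45, among them quantile normalization (-0.57, adjusted p = 0.095).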
